A study of Mus musculus with 9 samples.

Results

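Genes of the potassium channel families and of the HCN family were followed in mouse retinal organoids. They were chosen by symbol, as all gene spots whose name starts with Kcn or Hcn followed by a letter or digit, apart from 2 symbols that were not analysed here. The array held 100 such symbols on 180 probes. Of these, 74 were measured, meaning that some probe passed the scanner's flag for signal well above background on 3 or more of the 9 arrays. The brightest such probe stands for the gene, and 23594 genes of the whole array were measured in this way. The other 26 symbols are given below as dim and were not tested. Retinal organoids are small tissues with the layers and cell types of the developing retina, made here by reaggregating mouse ES or iPS cells. The samples were wild type (WT), a knockout of Bhlhb4, now named Bhlhe23 (B4KO), and a knockout of Islet-1 (Isl1KO), and every line was sampled at days 10, 16 and 23 of differentiation, called DD10, DD16 and DD23, with 1 sample per line and day. Every sample pooled 5 organoids. The sources used here do not say whether a knockout line was 1 clone, or which line came from ES and which from iPS cells. The 3 arrays of B4KO lay on one slide and the 6 arrays of WT and Isl1KO on another, so slide and line cannot be told apart for B4KO. Day and the position of an array on its slide likewise cannot be told apart.

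Potassium channels let potassium leave or enter a cell down its gradient and so set the resting potential and end electrical signals. Voltage-gated channels open on depolarisation, inward rectifiers and two-pore channels hold the membrane near rest, and calcium-activated channels couple calcium entry to potassium exit. HCN channels open on hyperpolarisation and carry a mixed cation current. In the retina, rods and cones shape the light response with currents of these families, Mueller glia clear potassium through Kir4.1, and the pigment epithelium uses Kir7.1.

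Levels are log2 signal over the 75th percentile of the array. They are compared between arrays for 1 probe and not between probes, except in the summed levels of marker lists. Such a sum is the log2 of the added linear signals of the measured markers, so bright probes weigh most. Between 57.3% and 67.8% of the gene spots of an array were well above background, and none was saturated. Both targeted genes were read in every sample. With the Isl1 probe at chr13:117099604-117099663 the level in WT was -0.60, 1.45 and -0.05 at DD10, DD16 and DD23, against -1.24, -0.44 and -1.63 in Isl1KO, which was lower on each day. The other Isl1 probe gave -1.25, 0.85 and -0.66 in WT and -0.88, 0.10 and -0.92 in Isl1KO, higher at DD10 and lower later. The Bhlhe23 probe gave -3.20, -2.82 and -4.55 in WT, -3.41, -4.88 and -6.64 in B4KO, and -2.95, -4.55 and -6.56 in Isl1KO, and it was not well above background in B4KO at DD16 and DD23 nor in Isl1KO at DD23. The sources used here do not say whether these probes lie in the deleted parts. Of the photoreceptor markers, all 9 that were measured, of 10 listed, were higher at DD23 than at DD10, with a median log2 difference of 8.0; Gnat1 was not measured, and of 10 bipolar cell markers Vsx1 and Grm6 were not. The summed level of the photoreceptor markers ran from 0.63 to 1.64 at DD10, from 5.16 to 5.33 at DD16 and from 7.49 to 7.86 at DD23. In pooled tissue, fewer cells of a type and less RNA per cell cannot be told apart.

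The probes of 6 channel genes with wide changes are printed first, because every value of those genes below rests on these 60 bases. They are given as the array design gives them, 5′ to 3′, with positions and strand in build mm9; an exon annotation of that build was not used here.
Kcne2, chr16:92298155-92298214, plus strand: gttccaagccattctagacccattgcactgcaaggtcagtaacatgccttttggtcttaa
Kcna5, chr6:126482573-126482632, minus strand: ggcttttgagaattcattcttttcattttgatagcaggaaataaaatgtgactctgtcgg
Kcna1, chr6:126586524-126586583, minus strand: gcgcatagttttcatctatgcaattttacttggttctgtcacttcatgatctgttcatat
Kcnj5, chr9:32122418-32122477, minus strand: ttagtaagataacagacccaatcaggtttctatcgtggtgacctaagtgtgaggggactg
Kcnj2, chr11:110938023-110938082, plus strand: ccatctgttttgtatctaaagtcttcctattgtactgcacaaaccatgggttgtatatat
Kcnj12, chr11:60886706-60886765, plus strand: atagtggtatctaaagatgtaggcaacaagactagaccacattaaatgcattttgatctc

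Between DD10 and DD23 more channel genes rose than fell. At DD16 against DD10, 33 of the 74 measured genes were higher and 11 lower, where 21.9% of all genes tested were higher and 18.8% lower. At DD23 against DD16, 23 were higher and 7 lower, beside 19.3% and 21.9% of all genes. Over the whole span from DD10 to DD23, 41 were higher and 12 lower, beside 31.6% and 29.2% of all genes. The median log2 difference of the 74 was 0.33 for the earlier step, 0.21 for the later one and 0.61 for the span, and that of all genes was 0.03, 0.01 and 0.05. Each of these passing differences had the same sign in all 3 lines. The spread in the fit is the disagreement between lines, so this follows largely from the call and is no separate check. A gene is called higher or lower at an adjusted p under 0.05 in limma's fit over all genes, and errors are standard errors of that fit with 3 arrays a day. The groups of 3 arrays did not overlap for 43 members in the earlier step, 32 in the later step and 48 over the span, beside 44.2%, 44.6% and 54.3% of all genes.

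The filter on dim probes bears on these counts, since 22 of the 74 genes were not well above background on every array and could enter through the days on which they were bright. With the requirement raised to all 9 arrays, 52 channel genes stayed, of which 31, 24 and 42 passed for the earlier step, the later step and the span, beside 48.5%, 49.6% and 67.5% of the 18852 genes that met it. Just inside the rule, Kcna3 and Kcnh7 were well above background on 3 arrays. Just outside it, 7 symbols reached 2 arrays: Kcnab2, Kcnf1, Kcnip2, Kcnk6, Kcnk12, Kcnu1 and Kcnv1. A further 3, Kcnd3os, Kcnmb4os1 and Kcns2, reached 1 array, and 16 reached none, among them Kcnq3, Kcng4, Kcnj6, Kcnj8, Kcnj16, Kcnk9 and Kcnmb1.

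Both steps were higher for 14 members (18.9% of the 74, where 7.16% of all genes tested had that shape). The earlier step alone was higher for 18 members (24.3%, against 10.9% of all genes) and the later step alone for 6 (8.11%, against 9.74%). Both steps were lower for 5 members (6.76%, against 7.26%): Kcnj4, Kcnj5, Kcnj12, Kcnk5 and the antisense transcript Kcnmb4os2. Only 3 members were called lower and then higher, Kcna1, Kcna5 and the dim Kcnh5, and 1 rose and then fell, Kcnk1. Neither step passed for 23 members (31.1%, against 38.8%). Both steps use the DD16 arrays, so the shapes are descriptions.

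**Figure D1:**
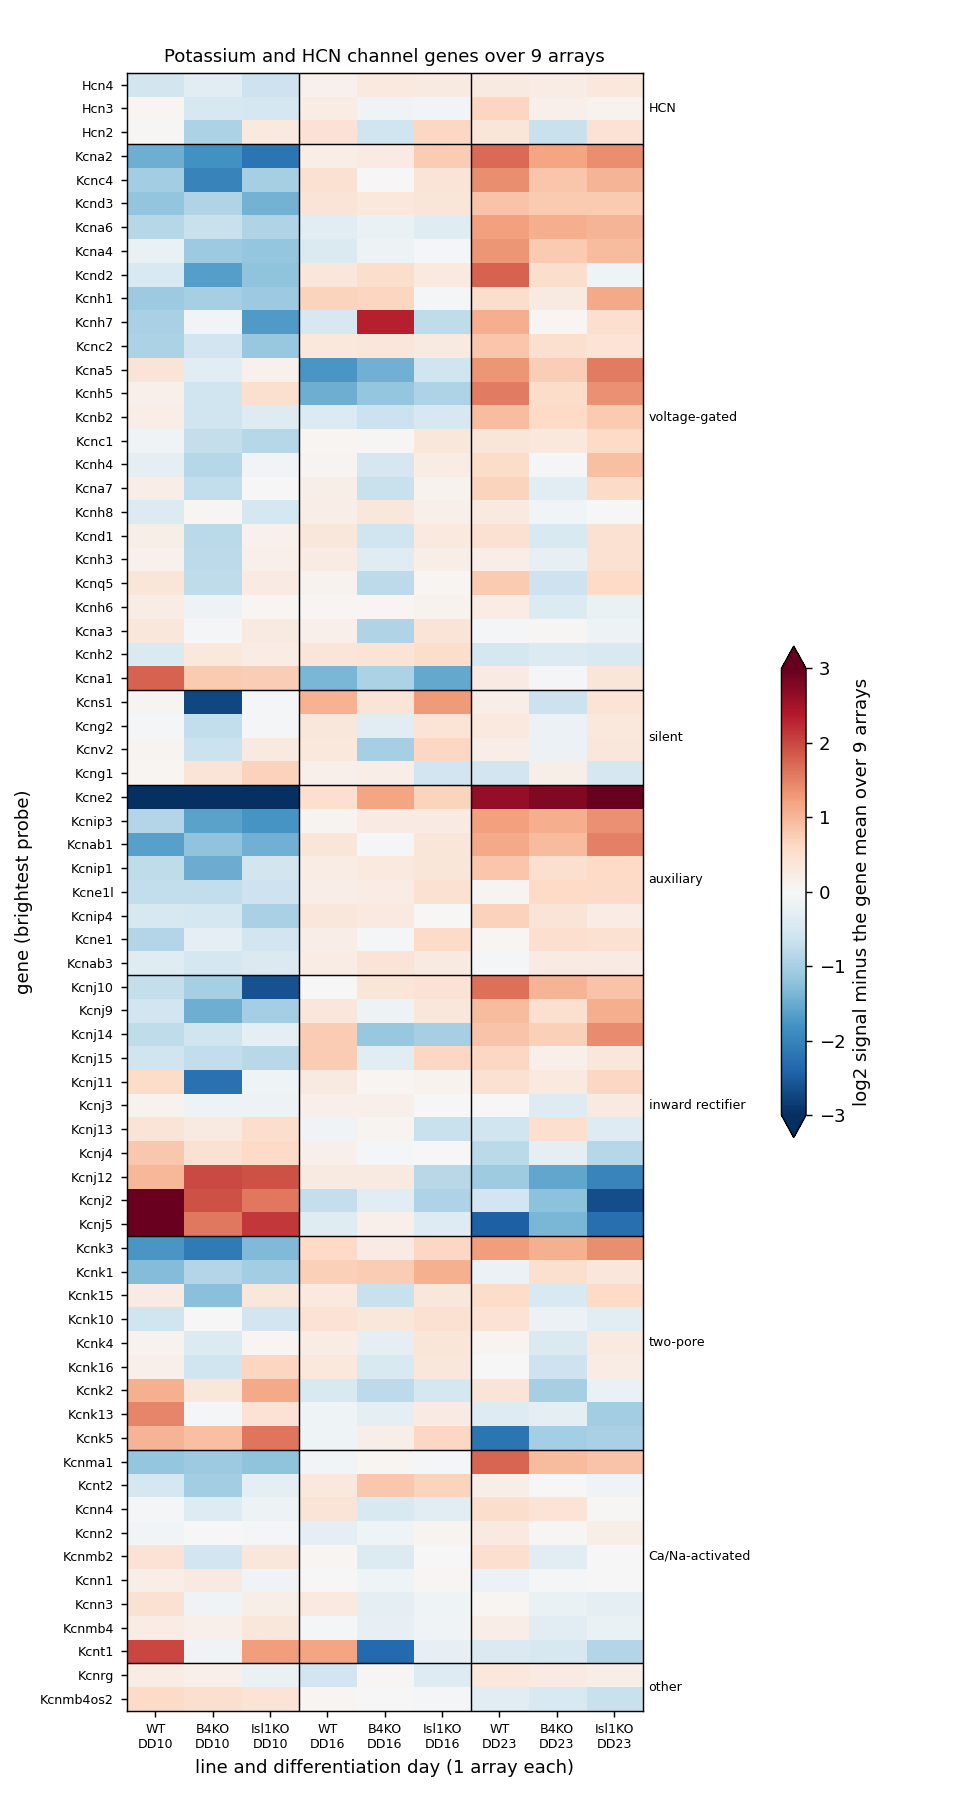
Each row is 1 of 69 measured channel genes and each column 1 array; colour is the log2 signal minus the gene's mean over the 9 arrays, cut at 3 in both directions, with rows grouped by role and ordered by the log2 difference between DD23 and DD10. Kcne2 goes from dark blue at DD10 to dark red at DD23 in all 3 lines, while Kcnj2, Kcnj5 and Kcnj12 go the opposite way.

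Hcn2, Hcn3 and Hcn4 were each higher at DD16 than at DD10, and Hcn4 moved furthest of these. Hcn4, a slowly opening family member, was at -2.68, -2.46 and -2.76 at DD10 in WT, B4KO and Isl1KO, at -2.01, -1.85 and -1.87 at DD16 and at -1.88, -1.91 and -1.82 at DD23. DD10 lay below both later days, which overlapped each other. Hcn4 rose by 0.72 ± 0.09 at DD16 (adjusted p = 0.00312), with no passing change afterwards. Hcn2 rose by 0.36 ± 0.07 at DD16 (adjusted p = 0.0118), although its arrays at both days overlapped, and the call was lost in 2 of 17 alternatives. Hcn3 rose by 0.32 ± 0.08 and then 0.30 ± 0.08 with the brightest of its 3 probes (adjusted p = 0.0243 and 0.0314). For the later step another Hcn3 probe gave -0.25 (adjusted p = 0.764), so the probes did not read alike, and the calls of the 2 steps were lost in 6 and 8 of 17 alternatives.

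Of the 29 pore subunits of voltage-gated channels on the array, 27 were measured. Of these, 18 were higher and 2 lower at DD23 than at DD10, beside 31.6% and 29.2% of all genes. The median log2 difference of the 27 was 0.98. Kcnb2, which encodes the delayed rectifier Kv2.2, was at -2.84, -3.63 and -3.43 at DD10 in WT, B4KO and Isl1KO and at -3.46, -3.69 and -3.51 at DD16. At DD23 it was at -2.11, -2.45 and -2.24, above every array of both earlier days. Only the later step passed, by 1.29 ± 0.13 (2.44-fold, adjusted p = 0.00156).

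Among the Kv1 genes, Kcna6 stood at 0.22, 0.41 and 0.19 at DD10 in WT, B4KO and Isl1KO. It was at 0.74, 0.88 and 0.72 at DD16 and at 2.32, 2.17 and 2.11 at DD23. The rise was 0.51 ± 0.09 (adjusted p = 0.00726) in the earlier step and 1.42 ± 0.09 (2.67-fold, adjusted p = 0.000685) in the later one, with no overlap between days. Kcna2, the Kv1.2 channel of axons, was not well above background on any DD10 array, on the Isl1KO array alone at DD16, and on all 3 at DD23, where its levels were -3.63, -4.14 and -3.94. It was at least 1.95-fold higher at DD23 than at DD10. The bound was set by the dimmest signal that counted as well above background on each DD10 array. Kcna2 met the filter only with its DD23 arrays counted, so this fold is a description. Kcna4, an inactivating Kv1 channel, rose by 1.24 ± 0.26 after DD16 (adjusted p = 0.0126, lost in 3 of 16 alternatives).

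Of the Kv4 genes, which encode transient A-type channels, Kcnd3 and Kcnd2 rose at DD16, and Kcnd1 differed by 0.18 there (adjusted p = 0.0696). Kcnd3 had levels of 0.28, 0.57 and 0.05 at DD10 in WT, B4KO and Isl1KO, of 1.84, 1.79 and 1.83 at DD16 and of 2.31, 2.25 and 2.26 at DD23. The 3 lines were nearly level at both later days, and the steps were 1.52 ± 0.12 (2.87-fold, adjusted p = 0.000833) and 0.45 ± 0.12 (adjusted p = 0.0303), the latter lost in 7 of 17 alternatives. Kcnd2 was less uniform, at -3.32, -4.52 and -4.06 at DD10, -2.53, -2.32 and -2.56 at DD16, and -1.09, -2.34 and -3.0 at DD23. WT was the highest line at DD23 and Isl1KO the lowest, and only the earlier step passed (1.5 ± 0.38, adjusted p = 0.0246), a call lost in 6 of 16 alternatives. Of the fast Kv3 channels, Kcnc1 rose by 0.70 ± 0.21 (adjusted p = 0.0411) and Kcnc2 by 1.20 ± 0.15 (adjusted p = 0.00265) at DD16, while Kcnc4 rose by 1.62 ± 0.16 and again by 0.81 ± 0.16. Kcnc4 was not well above background in WT and B4KO at DD10, and with normexp its earlier step was 0.84. The Kcnc1 call was lost in 10 of 17 alternatives, and without the Isl1KO array of DD10 the step was 0.45 (adjusted p = 0.106).

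In the Kv10 to Kv12 families, Kcnh1, a channel of photoreceptor inner segments, rose by 1.48 ± 0.29 at DD16 (2.79-fold, adjusted p = 0.011). Kcnh2, the channel known as ERG1, fell by 0.91 on the log2 scale after DD16 (standard error 0.15, adjusted p = 0.00598). Its levels at DD16 were -0.60, -0.55 and -0.43 in WT, B4KO and Isl1KO, all above those at DD23, which were -1.50, -1.38 and -1.42. Kcnq5, which encodes a channel of the slow M current, rose after DD16 by 0.46 ± 0.11 (adjusted p = 0.0192), lost in 4 of 17 alternatives. Kcna7 and Kcnd1 were also higher over the span, by 0.50 and 0.32. Kcnh4 was higher by 0.87 with its brighter probe (adjusted p = 0.000243), while its other probe gave -0.18 (adjusted p = 0.222). The 7 that did not pass over the span had differences from -0.24 to 1.47.

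Kcna1 and Kcna5 had their lowest levels at DD16. Kcna1, the Kv1.1 channel of axons, was at 0.69, -0.29 and -0.34 at DD10 in WT, B4KO and Isl1KO, at -2.44, -2.03 and -2.61 at DD16 and at -0.82, -1.10 and -0.70 at DD23. It fell 5.20-fold (adjusted p = 0.00258) and then rose 2.81-fold (adjusted p = 0.00972). Over the whole span Kcna1 was 0.89 lower on the log2 scale (-0.89 ± 0.29, adjusted p = 0.0372), a call lost in 7 of 17 alternatives, among them without the WT array of DD10 (-0.55, adjusted p = 0.0945). Kcna5, the Kv1.5 channel known best from the heart, was at -1.44, -2.17 and -1.71 at DD10, at -3.56, -3.28 and -2.43 at DD16 and at -0.49, -1.08 and -0.28 at DD23. It fell 2.5-fold (adjusted p = 0.0109) and then rose 5.55-fold (adjusted p = 0.0017), ending 2.22-fold above DD10. Kcnh5, a pore subunit of the ether-a-go-go family, was not well above background on any DD16 array, nor in WT and B4KO at DD10. Its earlier step was at least 1.02-fold downward (adjusted p = 0.0139), a call lost in 3 of 16 alternatives, with -0.16 under normexp. At DD23 it was at least 2.27-fold higher than at DD16. Kcnh5 met the filter only with its DD23 arrays counted, so that fold is a description. Kcna5, Kcna1 and Kcna6 neighbour each other in that order on chromosome 6 in RefSeq's GRCm38.p6, and the first 2 had the dip at DD16 while Kcna6 rose in both steps.

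**Figure D2:**
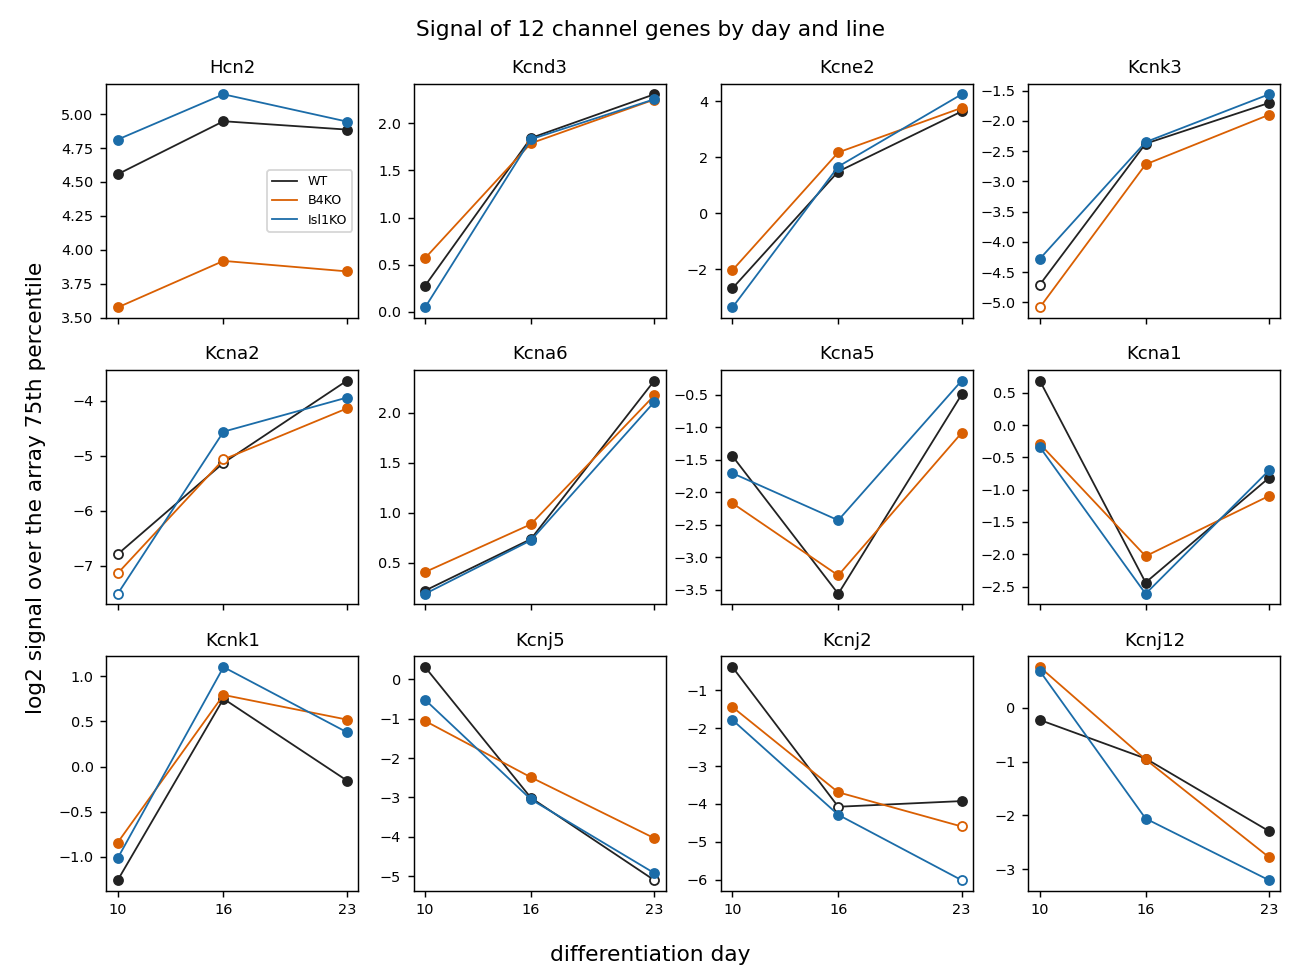
Log2 signal over the array's 75th percentile (vertical axis, a separate range in each panel) against differentiation day for 12 channel genes, with 1 point per array, lines joining the days of WT, B4KO and Isl1KO, and open points for arrays on which the probe was not well above background. Kcna5 and Kcna1 dip at DD16 in every line, Kcnk1 peaks there, and Kcnj5 ends at -5.10, -4.03 and -4.92 in WT, B4KO and Isl1KO.

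Silent subunits open no channel alone and alter Kv2 channels. Only 4 of the 10 on the array were measured. Of these, 1 was higher at DD23 than at DD10, beside 31.6% of all genes. That was Kcng2 (0.42 ± 0.08, adjusted p = 0.00514), with overlapping arrays. Kcnv2, the Kv8.2 subunit of rods and cones, had levels of -2.75, -2.53 and -2.63 in WT at DD10, DD16 and DD23, of -3.49, -3.82 and -3.0 in B4KO and of -2.58, -2.20 and -2.50 in Isl1KO. The days overlapped, and the difference over the span was 0.23 ± 0.21 (adjusted p = 0.389). Kcns1, the Kv9.1 subunit, was higher at DD16 than at DD10 by 1.79 ± 0.43 (adjusted p = 0.0207). Its B4KO array at DD10, at -5.03, was not well above background and lay below every other array, and without it the step was 1.16 (adjusted p = 0.00483). The call was lost without the DD16 array of B4KO or of Isl1KO.

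All 8 auxiliary subunits measured, of 12 on the array, were well above background on all 9 arrays. Each was higher at DD16 than at DD10 and at DD23 than at DD10, beside 21.9% and 31.6% of all genes. After DD16, 3 rose further, beside 19.3% of all genes. The largest change of any channel gene was that of Kcne2, a small single-pass subunit that alters several potassium channels and is abundant in choroid plexus and stomach epithelium. Its levels were -2.67, -2.03 and -3.36 at DD10 in WT, B4KO and Isl1KO, 1.5, 2.18 and 1.68 at DD16, and 3.64, 3.77 and 4.26 at DD23. All arrays of a later day lay above all arrays of an earlier one. Kcne2 rose by 4.47 ± 0.32 (22.2-fold, adjusted p = 0.000591) and then by 2.11 ± 0.32 (4.31-fold, adjusted p = 0.00471), or 95.4-fold over the span (adjusted p = 5.4e-05). The choroid plexus markers moved in part with it. Of 5 measured, of 6 listed, Ttr (3.1), Aqp1 (3.48) and Otx2 (1.46) were higher at DD23 than at DD10, Clic6 was lower (-1.67), Folr1 differed by -0.51 (adjusted p = 0.215), and Kl was not well above background on 3 arrays. Their summed level ran from 5.56 to 5.95 at DD10, from 6.59 to 6.85 at DD16 and from 7.11 to 7.94 at DD23. Otx2 weighs most in that sum, being the brightest of these probes on each array. In WT it was at 5.40, 6.01 and 6.52 at DD10, DD16 and DD23. Ttr is also on the list of pigment epithelium markers. The part of the choroid plexus markers in the Kcne2 result was not tested.

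The partners of Kv1 and Kv4 channels rose as well. Kcnab1, a cytoplasmic beta subunit of Kv1 channels, was at -2.21, -1.80 and -2.03 at DD10, at -0.23, -0.64 and -0.21 at DD16 and at 0.54, 0.37 and 0.94 at DD23 in WT, B4KO and Isl1KO. It rose 3.15-fold and then 1.97-fold (adjusted p = 0.00194 and 0.0086), with no overlap. Its other probe gave log2 differences of 0.64 and 1.08 (adjusted p = 0.227 and 0.0686). Kcnip3, a calcium sensor that binds Kv4 channels and is also called calsenilin, rose 3.06-fold at DD16 (adjusted p = 0.00388) and 2.05-fold more by DD23 (adjusted p = 0.0144, lost in 4 of 17 alternatives). Over the span its 3 probes gave log2 differences of 2.65, 3.07 and -0.09, the last from a probe well above background on 4 arrays only. Kcnip1, a related sensor, rose 2.34-fold at DD16 (adjusted p = 0.00547). Kcne1l, now named Kcne5, rose 1.98-fold at DD16 (adjusted p = 0.00233). The other 3, chosen for mention after their values were seen, were Kcnab3, Kcne1 and Kcnip4, with rises of 0.74, 0.81 and 0.87 on the log2 scale at DD16.

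Of the 11 inward rectifiers measured, of 15 on the array, 4 were higher and 4 lower over the span, beside 31.6% and 29.2% of all genes. Kcnj5, a subunit of channels gated by G proteins, was at 0.30, -1.06 and -0.52 at DD10 in WT, B4KO and Isl1KO, at -3.01, -2.49 and -3.05 at DD16 and at -5.10, -4.03 and -4.92 at DD23. Its days did not overlap, and the WT array of DD23 was no longer well above background. Kcnj5 fell 5.36-fold (adjusted p = 0.00816) and then 3.57-fold (adjusted p = 0.0185), or 19.1-fold over the span (adjusted p = 0.000425). The later call was lost in 5 of 16 alternatives, and with normexp background correction the fall over the span was smaller, at -2.83.

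The genes of Kir2.1, Kir2.2 and Kir2.3, channels that hold the resting potential, were all lower at DD23 than at DD10. Kcnj2, which encodes Kir2.1, was at -0.38, -1.44 and -1.78 at DD10, at -4.07, -3.69 and -4.29 at DD16 and at -3.92, -4.60 and -6.02 at DD23. DD10 stood above both later days in every line, and 3 of the 6 later arrays were not well above background. The earlier step was a 7.05-fold fall (adjusted p = 0.00316), and the later difference was -0.83 ± 0.37 (adjusted p = 0.121). With normexp background correction the fall over the span was -2.16 in place of -3.65. Kcnj12, which encodes Kir2.2, was at -0.23, 0.75 and 0.68 at DD10, at -0.94, -0.96 and -2.06 at DD16 and at -2.29, -2.77 and -3.20 at DD23. Its days did not overlap, and it fell 3.30-fold (adjusted p = 0.0181) and then 2.70-fold (adjusted p = 0.0313), each call lost in 5 of 17 alternatives. Kcnj4, the Kir2.3 gene, fell 1.51-fold and 1.59-fold (adjusted p = 0.0406 and 0.0269), calls lost in 7 and 4 of 17 alternatives.

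The remaining Kir2 gene, Kcnj14, which encodes Kir2.4, was higher at DD23 than at DD10 by 1.54 ± 0.48 (adjusted p = 0.0329), a call lost in 7 of 17 alternatives. Kcnj15, which encodes Kir4.2, was not well above background on any DD10 array and was at least 1.42-fold higher at DD23. It met the filter only through arrays of the later days, so this fold is a description. Kcnj10, the Kir4.1 channel of Mueller glia, was at -4.32, -4.59 and -6.22 at DD10 in WT, B4KO and Isl1KO, the last not well above background. It was at -3.61, -3.24 and -3.17 at DD16 and at -1.97, -2.60 and -2.74 at DD23, with no overlap between days. Kcnj10 rose by 1.70 ± 0.43 at DD16 (adjusted p = 0.0252, lost in 3 of 16 alternatives), and the later difference was 0.91 ± 0.43 (adjusted p = 0.145). Over the span it was 6.11-fold higher (2.61 on the log2 scale, adjusted p = 0.00297), with alternatives from 1.42, under normexp, to 2.92. Of the 8 Mueller glia markers, all measured, 4 were higher at DD23 than at DD10 and none lower, while Rlbp1 and Glul differed by 0.49 (adjusted p = 0.0728) and -0.13 (adjusted p = 0.308). Their summed level ran from 5.83 to 6.53 at DD10, from 7.35 to 7.4 at DD16 and from 6.97 to 7.33 at DD23, and their part in the Kcnj10 result was not tested.

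Kcnj9, a G protein gated subunit whose gene neighbours Kcnj10 on chromosome 1, rose by 1.19 ± 0.12 (adjusted p = 0.00161) and then 0.68 ± 0.12 (adjusted p = 0.00766). Kcnj13, the Kir7.1 channel of the pigment epithelium, passed in no day comparison. Its levels were -0.60, -0.71 and -0.45 at DD10 in WT, B4KO and Isl1KO, -1.09, -0.89 and -1.64 at DD16 and -1.56, -0.46 and -1.35 at DD23, where B4KO stood above both other lines. The difference over the span was -0.54 ± 0.28 (adjusted p = 0.138). Of the pigment epithelium markers, 5 of the 7 measured, of 9 listed, were lower at DD23 than at DD10 and 2 higher, Rdh5 and Ttr.

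Of the 9 two-pore leak channels measured, of 14 on the array, 3 were higher and 3 lower over the span, beside 31.6% and 29.2% of all genes. Kcnk3, the acid-sensitive channel TASK-1, was at -4.71, -5.08 and -4.28 at DD10 in WT, B4KO and Isl1KO, of which the first 2 were not well above background. It was at -2.38, -2.72 and -2.35 at DD16 and at -1.70, -1.90 and -1.56 at DD23, so the days did not overlap. Kcnk3 rose 4.63-fold (adjusted p = 0.000258) and then 1.69-fold (adjusted p = 0.00426). With normexp background correction the rise over the span was 1.76 on the log2 scale in place of 2.97. Kcnk1, the weakly rectifying channel TWIK-1, was at -1.26, -0.84 and -1.02 at DD10, at 0.75, 0.79 and 1.10 at DD16 and at -0.16, 0.52 and 0.38 at DD23. DD16 was the highest day in each line, after a 3.79-fold rise (adjusted p = 0.000551) and before a 1.55-fold fall (adjusted p = 0.0133), the latter lost in 4 of 17 alternatives.

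Among two-pore genes that fell, Kcnk5, the alkali-sensitive channel TASK-2, was well above background on all DD10 arrays and on no DD23 array. It was at least 2.33-fold lower at DD23 than at DD10. Kcnk2, the stretch-sensitive channel TREK-1, was well above background at DD10 and on no DD16 array, at least 1.92-fold lower there. Kcnk5 and Kcnk2 met the filter only with their DD10 arrays counted, so these folds are descriptions. Kcnk13, the halothane-inhibited channel THIK-1, was lower over the span by a log2 difference of -1.18 ± 0.38 (adjusted p = 0.0347), a call lost in 6 of 17 alternatives, among them without the WT array of DD10 (-0.79, adjusted p = 0.104), and with normexp background correction the difference was -0.57. Kcnk15 was higher over the span by 0.45 ± 0.14 (adjusted p = 0.0302), lost in 6 of 16 alternatives. By line the difference was 0.29 in WT, 0.80 in B4KO and 0.27 in Isl1KO. The largest, that of B4KO, rests on arrays not well above background.

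Of the calcium- and sodium-activated group, 9 of 12 were measured. Over the span 3 were higher and 2 lower, beside 31.6% and 29.2% of all genes. Kcnma1, the pore of the large-conductance BK channel, was at -2.44, -2.36 and -2.48 at DD10 in WT, B4KO and Isl1KO and at -1.36, -1.22 and -1.34 at DD16. At DD23 it was at 0.48, -0.33 and -0.42, with WT above both knockouts, and no day overlapped another. It rose 2.17-fold (adjusted p = 0.00963) and then 2.32-fold (adjusted p = 0.00685). The 6 Kcnma1 probes gave log2 differences from 0.12 to 2.33 over the span, all positive, and from -0.30 to 1.12 in the earlier step. Taken as the median over probes, the later step was 0.59 (adjusted p = 0.0836). Kcnn2, a small-conductance channel, differed by 0.21 ± 0.11 over the span with its brighter probe (adjusted p = 0.136). Its other probe, also well above background on all 9 arrays, gave 0.67, 0.72 and 1.39 for the earlier step, the later step and the span (adjusted p = 0.0274, 0.0215 and 0.000992), so the probes did not read alike. Kcnt2, activated by sodium, rose by 1.22 ± 0.22 at DD16 (adjusted p = 0.00897), from 1 array well above background at DD10 to 3 at DD16. Its difference over the span was 0.66 ± 0.22 (adjusted p = 0.0427), a call lost in 9 of 16 alternatives. Kcnn4, the intermediate-conductance channel, was higher over the span by 0.51, a call also lost in 9 of 16 alternatives. At DD10 it was well above background in Isl1KO alone. Kcnn4 met the filter only with its DD23 arrays counted, so this difference is a description. Kcnmb4 and Kcnn3, chosen for mention after their values were seen, were the 2 lower genes, by -0.34 and -0.30.

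**Figure D3:**
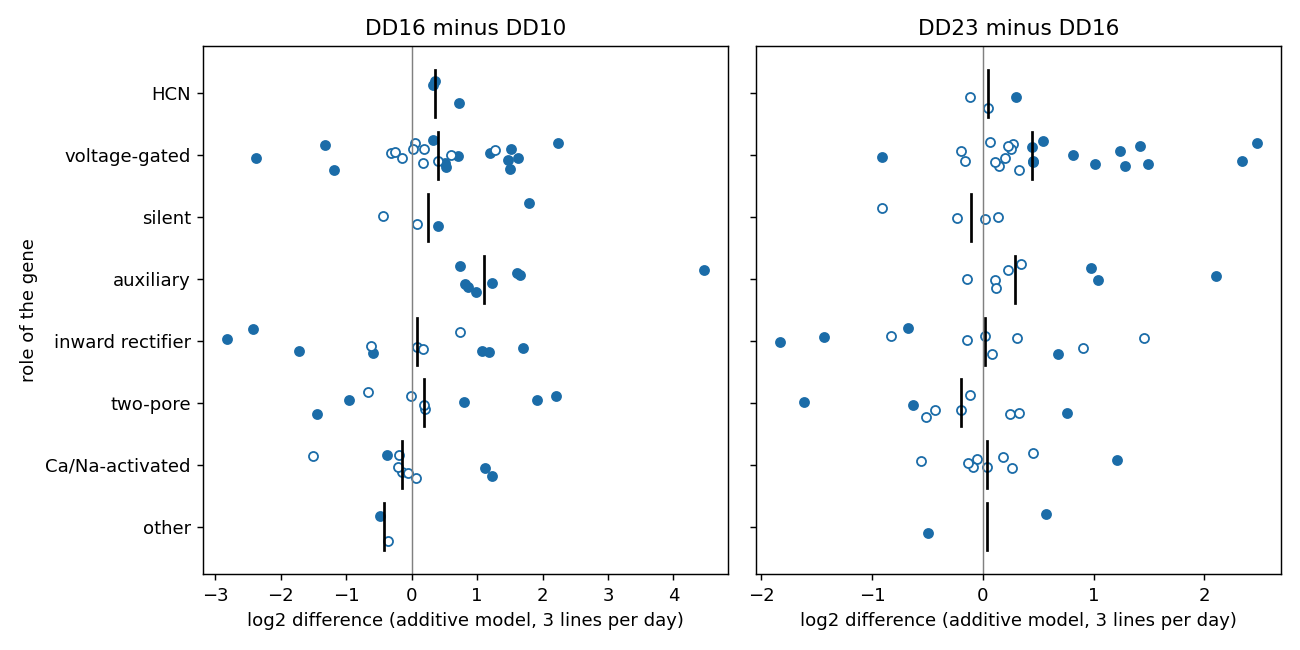
Log2 difference between days from the additive model (horizontal axis) for 69 measured channel genes, by role; filled points passed the threshold, open points did not, short black bars are medians, and vertical scatter is for display only. All 8 auxiliary subunits lie above 0.7 at DD16 against DD10, and the inward rectifiers spread from -2.82 to 1.70.

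Proteins that bind or work beside these channels were counted from lists. Of 22 partner proteins measured, of 26 listed, 11 were higher and 4 lower at DD23 than at DD10, beside the 31.6% and 29.2% of all genes. Dpp6, a partner of Kv4 channels, rose by 1.57 ± 0.10 at DD16 (adjusted p = 0.000459). Pex5l, a brain protein also called TRIP8b that binds HCN channels, rose by 1.29 ± 0.19 and then 0.69 ± 0.19 (adjusted p = 0.00445 and 0.031). Cntnap2, which gathers Kv1 channels along axons, was lower over the span (-1.20 ± 0.19, adjusted p = 0.00273). Of the pore subunits of sodium and calcium channels, 7 of the 18 measured were higher and 2 lower over the span, with a median of 0.07, beside the same shares of all genes. Of the 6 subunits of the sodium-potassium pump, which builds the potassium gradient, 4 were higher and 1 lower, again beside 31.6% and 29.2% of all genes, with a median of 1.71. Atp1b2, a beta subunit, was 3.71 ± 0.11 higher (adjusted p = 1.67e-05).

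Promoter sequences of RefSeq, assembly GRCm38.p6, were searched for TAATCC, the core bound by the photoreceptor factor Crx, on both strands in the window from 250 bases before to 50 bases after each start. Of the measured channel genes, 54 had a window, 71 windows in all. The letters were in 2 of the 71 windows (2.82%), those of Kcnj9 and Kcnrg, against 7.06% of all 32851 windows. The Kcnj9 window is printed because that gene rose in both steps and holds 1 of these matches; capitals mark it, which reads GGATTA here and TAATCC on the opposite strand, with its first base at position -97 from the start.
Kcnj9 promoter, GRCm38.p6, chr1:172329273-172329572, minus strand: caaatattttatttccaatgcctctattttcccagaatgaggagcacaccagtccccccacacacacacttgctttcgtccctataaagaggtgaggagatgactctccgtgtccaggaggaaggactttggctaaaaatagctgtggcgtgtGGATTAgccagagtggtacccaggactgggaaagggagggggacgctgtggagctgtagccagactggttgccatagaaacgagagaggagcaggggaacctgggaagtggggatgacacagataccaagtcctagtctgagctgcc
A match is a description of letters and not a binding site.

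Between the lines, channel genes passed only in comparisons with B4KO, which lay on its own slide. Nearly all passing genes of the whole array were in those comparisons too. Against WT, 17 of the 74 were lower in B4KO and 1 higher, beside 18.0% and 3.99% of all genes tested. The 17 were 2 of 4 HCN genes, 6 of 27 voltage-gated pores, 2 of 4 silent subunits, 4 of 9 two-pore genes, 2 of 9 calcium- or sodium-activated genes, 1 of 11 inward rectifiers and none of 8 auxiliary subunits. The median log2 difference was -0.26 for the channel genes and -0.00 for all genes. Kcnq5, which encodes Kv7.5 of the M current, was at 2.46, 2.22 and 2.89 in WT at DD10, DD16 and DD23 and at 1.35, 1.32 and 1.48 in B4KO. Isl1KO, at 2.36, 2.16 and 2.70, lay beside WT, and B4KO did not overlap either line. Kcnq5 was 2.20-fold lower in B4KO than in WT (adjusted p = 0.00108).

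Hcn2, the HCN channel of bipolar and other neurons, was at 4.56, 4.95 and 4.89 in WT at DD10, DD16 and DD23, at 3.57, 3.92 and 3.84 in B4KO and at 4.81, 5.15 and 4.94 in Isl1KO. B4KO was below both other lines on each day by a near constant amount, 2.03-fold against WT (adjusted p = 0.000482). Its probe is unusual in composition, with 81.7% G and C, and is printed for that reason, with its mm9 position.
Hcn2, chr10:79198412-79198471, plus strand: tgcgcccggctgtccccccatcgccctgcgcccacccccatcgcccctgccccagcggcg
Kcnd1, a Kv4 pore, was 1.91-fold lower in B4KO (adjusted p = 0.000461), and Kcna7, a Kv1 pore, 1.89-fold lower (adjusted p = 0.000651), both without overlap. The other Kcnd1 probe gave -0.36 (adjusted p = 0.145). Kcnk15, a two-pore gene, was not well above background on any B4KO array and at least 2.01-fold lower than in WT. It met the filter only through WT and Isl1KO arrays, so this fold is a description. Kcnv2 was 1.74-fold lower (adjusted p = 0.0439), a call lost in 9 of 16 alternatives. The others called lower were Kcng2, Kcnh3, Kcnh4, Kcnj9, Kcnk16, Kcnk4, Kcnmb2 and Kcnn3, by log2 differences from -0.77 to -0.47, and Kcnk2 and Kcnc4, by -0.81 and -0.67, whose calls were lost in 11 and 8 of 15 alternatives. Hcn3 was 0.45 lower with its brightest probe (-0.45 ± 0.08, adjusted p = 0.0115), while the median over its probes gave 0.46 (adjusted p = 0.678).

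The 17 probes lower in B4KO had a median of 51.7% G and C, against 40.0% for the 56 channel probes that passed in neither direction. Over all genes the medians were 45.0% for the probes lower in B4KO and 41.7% for those that did not pass. The part of probe composition in these differences was not tested, and slide and line cannot be told apart. None of the 9 photoreceptor markers and none of the 8 bipolar markers measured passed between B4KO and WT, with medians of -0.10 and -0.07, and 0 and 2 of them had an unadjusted p under 0.05 in limma's fit, beside 36.5% of all genes. Of the other marker lists, 2 of 3 muscle markers measured, of 6 listed, were lower in B4KO (Actc1 and Des). The same held for 1 each of the amacrine and horizontal (Gad1), ganglion (Pou4f1), Mueller (Aqp4), neural crest and oligodendrocyte (Sox10) and pluripotent (Pou5f1) markers. Of all genes tested, 18.0% were lower in B4KO. The part of these markers in the channel differences was not tested.

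Against B4KO, 13 channel genes were higher in Isl1KO and none lower, beside 18.1% and 3.80% of all genes. Hcn2 (2.28-fold, adjusted p = 0.000308), Kcnk15 (at least 2.09-fold) and Kcnq5 (2.03-fold, adjusted p = 0.00142) led them. Kcnk15 met the filter only through WT and Isl1KO arrays, so its fold is a description. The comparison shares its B4KO arrays with the one against WT, so the values are given beside each other and not as a second observation.

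No channel gene passed between Isl1KO and WT in limma's fit, where 0.00424% of all genes did, and 11 of the 74 had an unadjusted p under 0.05, beside 8.15% of all genes. The median log2 difference was -0.10. The lowest adjusted p was 0.324, that of Hcn3 (-0.48 ± 0.08). Kcnk5 had the highest value, 0.86 ± 0.23 (adjusted p = 0.478), and Kcnj2 the lowest, -1.23 ± 0.37 (adjusted p = 0.511). These 2 genes were dim on several later arrays. All 11 inward rectifiers had a negative difference, from -1.23 to -0.04, without a passing member. A positive difference was found for 28 of the 74 channel genes and for 12273 of all 23594 genes. The 11 differences share their WT arrays, and on each single day their signs were mixed.

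**Figure D4:**
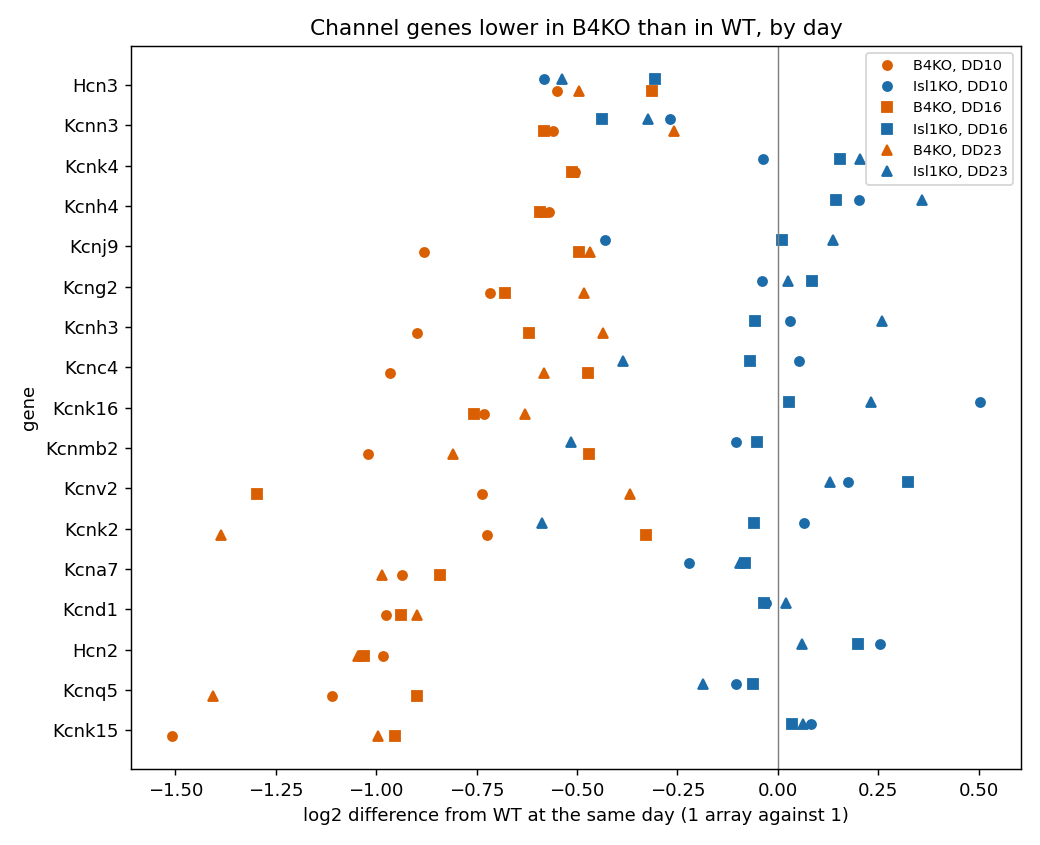
Log2 difference from WT at the same day (horizontal axis, 1 array against 1) for the 17 channel genes lower in B4KO than in WT, with orange for B4KO and blue for Isl1KO and a symbol for each day. The B4KO points of Hcn2 lie between -1.05 and -0.98, and its Isl1KO points between 0.06 and 0.26.

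Differences on single days compare 2 arrays and have no replicate check. The median difference of B4KO from WT over the 74 genes was -0.04 at DD16, against -0.35 at DD10 and -0.35 at DD23. The same medians were not taken over all genes, so an offset between 2 arrays cannot be told apart from a change of channel genes. For Isl1KO the medians were -0.09, 0.02 and -0.06 at DD10, DD16 and DD23. At DD10 Kcns1 and Kcnj11, a subunit of ATP-sensitive channels, were not well above background in B4KO, and at least 6.19-fold and 1.69-fold lower there than in WT. At DD16 Kcnh7, the ERG3 channel, was well above background in B4KO alone, at least 1.61-fold above WT. Kcnh7 met the filter only with that B4KO array counted, so this fold is a description. At DD23 Kcnd2 was 1.25 below WT in B4KO and 1.91 below it in Isl1KO (-1.25 and -1.91). Kcnma1 at DD23 was also below WT in both knockouts, by -0.80 in B4KO and -0.90 in Isl1KO, after gaps between -0.04 and 0.15 at the earlier days.

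In each knockout, the gap to WT on the last day was set against the average gap of both earlier days in a limma fit. No channel gene passed in Isl1KO, where 0.00% of all genes did, or in B4KO, again with 0.00% of all genes. At an unadjusted p under 0.05 there was 1 channel gene in Isl1KO and 7 in B4KO, beside 4.92% and 6.06% of all genes. Kcnma1 had the lowest adjusted p in both, with departures of -0.89 ± 0.16 in Isl1KO (adjusted p = 0.783) and -0.91 ± 0.16 in B4KO (adjusted p = 0.687). That fit had 2 residual degrees of freedom, and both departures share the WT arrays.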

How the data were processed

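RNA of 9 samples was hybridised to single-colour arrays. Per the submitters' processing notes, the tool that read spot intensity was Agilent Feature Extraction 12.0.3.1. The deposited processed intensity was background-subtracted by the authors' scanner software, per the file headers. The deposited mean and background intensity and 0 or 1 flags were used beside it. In the spots checked, each array of the deposited value table equalled its processed intensity over 1 constant, so its scale and direction were found and no centring by gene.

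Spots of a probe were averaged, and 102 probes with an outlier flag were left out. Values are log2 intensity minus the array's log2 75th percentile. A gene was measured where a probe passed the well-above-background flag on 3 or more arrays (23594 genes), and its brightest such probe was used. RefSeq's table gave names only.

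limma 3.58.1 in R 4.3.3 fitted line and day as additive terms over 9 arrays (4 residual and 2.01 prior degrees of freedom), with Benjamini-Hochberg adjustment over all genes at 0.05; a second fit added a DD23 term per knockout. No combination of line and day was replicated, so the spread is departure from additivity, and the number of arrays limits precision. Where a group was dim on all its arrays, "at least" folds use, per array, the lowest signal well above background. The fit was tested on simulated data. Alternatives were quantile normalization, normexp with an offset of 50, the value table, other filters, the median over probes, an intensity trend, 1 slide, and leaving out each array.

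The members and lists were chosen with earlier results of these data known. Named genes were the HCN genes, the 10 largest passing rises and falls per day comparison, up to 10 passing members each way (otherwise the 3 highest and lowest) per line comparison, a retinal panel and the 2 largest others per role. Further genes named in counts, such as Kcna3, were chosen after their values were seen. Antisense symbols were counted as other members. A few genes enter the counts and are not reported here by name or drawn.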

Additional observations from a re-analysis of the deposited data

Results flagged for a closer look

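Kcnj14, the Kir2.4 gene, moved in opposite directions between the lines from DD10 to DD16. Its log2 level rose by 1.53 in WT, from -3.54 to -2.0, and differed by -0.55 in B4KO and by -0.72 in Isl1KO. From DD16 to DD23 the differences were 0.09 in WT, 1.87 in B4KO and 2.39 in Isl1KO, and by DD23 the 3 lines stood at -1.91, -2.05 and -1.36. Each value compares 1 array with 1, and the difference between the lines was not tested. It was singled out as the only channel gene well above background on these arrays whose step was at least 0.5 upward in one line and at least 0.5 downward in another, a size chosen after the data were seen.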

How the results depend on the processing

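Across 8 alternatives other than leaving out an array (7 for B4KO, 6 for the DD23 departures), channel genes passing ranged from 31 to 46 for DD16 against DD10, from 24 to 34 for DD23 against DD16, from 42 to 59 for DD23 against DD10, from 12 to 19 for B4KO against WT and from 11 to 15 for Isl1KO against B4KO, and stayed at 0 for Isl1KO against WT and both departures. Leaving out 1 array gave 29 (without Isl1KO at DD16) to 44, 19 (without Isl1KO at DD23) to 31, 46 to 53, 11 (without WT at DD10) to 17, 11 to 15, and 0 for Isl1KO against WT. The departures were not refitted without single arrays. With the slide of WT and Isl1KO alone, 32, 26 and 46 passed in the 3 day comparisons. Of 145 named values past the threshold, 89 stayed past it in every alternative, and 2 changed sign, both for Hcn3 with the median over probes: -0.25 for DD23 against DD16 and 0.46 for B4KO against WT. The named values for comparisons with B4KO were put through the alternatives after the data were seen. Over all genes, 18.1% of the calls in B4KO against WT were higher, and 29.6% with normexp, 30.7% with probes bright on all 9 arrays and 31.2% with the intensity trend; single arrays left out gave 4.5% to 15.2%. For Isl1KO against WT, 1 gene passed over the whole array, 11 with normexp, 14 with the intensity trend and 3 on 1 slide. The causes were not tested. No scaling moved the median of all genes by more than 0.1. Dim probes limit Kcna2, Kcnh5, Kcnk5, Kcnk15 and Kcnj2, whose folds depend on the background. No paired analysis was possible because each combination of line and day holds 1 sample with the replicate number 1; day and line are already terms of the fit.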

Other observations

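Of the 2 members outside the channel roles, Kcnrg, a regulator related to the assembly domain of Kv1 channels, rose by 0.57 ± 0.16 after DD16 (adjusted p = 0.0328). The antisense transcript Kcnmb4os2 was lower in both steps, by log2 differences of -0.49 and -0.49 (adjusted p = 0.00507 and 0.00451). Kcnmb4, the BK beta subunit gene beside it, chosen for mention after its values were seen, was lower in the earlier step only (-0.38 ± 0.11, adjusted p = 0.0424), and its levels ran from 0.89 to 1.54 over the 9 arrays.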
